A study of Mus musculus with 30 samples.

Results

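The 7 genes Atp2c1, Rngtt, Rasa1, Ptpn4, Uhrf2, Mtmr10 and Prcp carried some of the most enriched m6A calls that were missing when METTL14 was removed. They were chosen from 13765 genes with a call in any list, because their enrichment values ranked high in WT or KO+WT lists and no KO list held a call for them. Those values chose the genes, so their presence in WT and KO+WT and their absence from KO are given as a description and were not tested. The calls in the 2 arginine mutant lines were not used in the choice. Together the 7 genes had 54 distinct bins of 100 nt, out of 62091 in the series, and 233 calls over the lists.

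The cells were mouse embryonic stem cells of the C57BL/6 strain in 5 lines. They were wild type (WT), a METTL14 knockout (KO), and the knockout rescued with METTL14 as the normal protein (KO+WT) or as an arginine methylation-deficient form, 5RK or 13RK (the KO+5RK and KO+13RK lines of the figures, called 5RK and 13RK in the text). All 3 rescue lines thus share the knockout, and the labels do not say how METTL14 was put back or whether a line is 1 clone. Each line has 3 m6A immunoprecipitations with 3 matching inputs, and the values used here were the 15 deposited lists of called bins, one for each immunoprecipitation.

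N6-methyladenosine (m6A) is the most common internal modification of messenger RNA. METTL3 carries the catalytic activity of the complex that writes it, and METTL14 binds the RNA and holds METTL3 in its active form. The mark sits mostly in long exons, around stop codons and in 3′ untranslated regions, and in embryonic stem cells it is known for shortening the life of transcripts. The chosen genes have no pathway in common. Rngtt and Uhrf2 encode nuclear enzymes, Rasa1 and Ptpn4 signalling proteins, and Atp2c1, Mtmr10 and Prcp proteins of membranes and lysosomes.

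List length differed between the lines, from 22217 to 23164 bins in WT and 6328 to 8593 in KO, with 14187 to 17185 in KO+WT, 11174 to 13013 in 5RK and 9588 to 10980 in 13RK. Read depth is unknown, and in such lists less m6A on a transcript and less of the transcript cannot be told apart. The only calls of Mettl14 itself were in 2 of the 3 lists of 5RK, and since a call does not report expression the knockout was not checked here. Of 8 embryonic stem cell markers, 6 (Sox2, Nanog, Klf4, Esrrb, Zfp42 and Tfcp2l1) were called in all WT lists and in 2 or 3 KO lists. Pou5f1 was called in 2 lists each of KO, 5RK and 13RK and in no WT or KO+WT list, and Dppa5a in no list. Of 6 fibroblast markers, Fn1 was called in 3 WT and 2 KO lists, Col1a1 in 2 and 1, Vim in 2 and 1, and Col1a2, Col3a1 and Thy1 in none of either.

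The calls of the 7 genes followed the same broad order as the lists. WT lists held 29, 33 and 25 of their bins, KO lists none, KO+WT lists 20, 24 and 23, 5RK lists 12, 12 and 16, and 13RK lists 13, 10 and 16. The means were 29 ± 4 in WT, 22.3 ± 2.08 in KO+WT, 13.3 ± 2.31 in 5RK and 13 ± 3 in 13RK (SD, n = 3). The KO+WT lists lay below every WT list and above every mutant list, while the ranges of the 2 mutants overlapped. In total length, too, the KO+WT lists lay below every WT list and above every mutant list. WT and KO+WT values helped to choose the genes, so this order is a description. All 7 genes had a call in each WT and each KO+WT list. 5RK lists called 6, 6 and 7 of the genes and 13RK lists 6, 6 and 5.

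**Figure D1:**
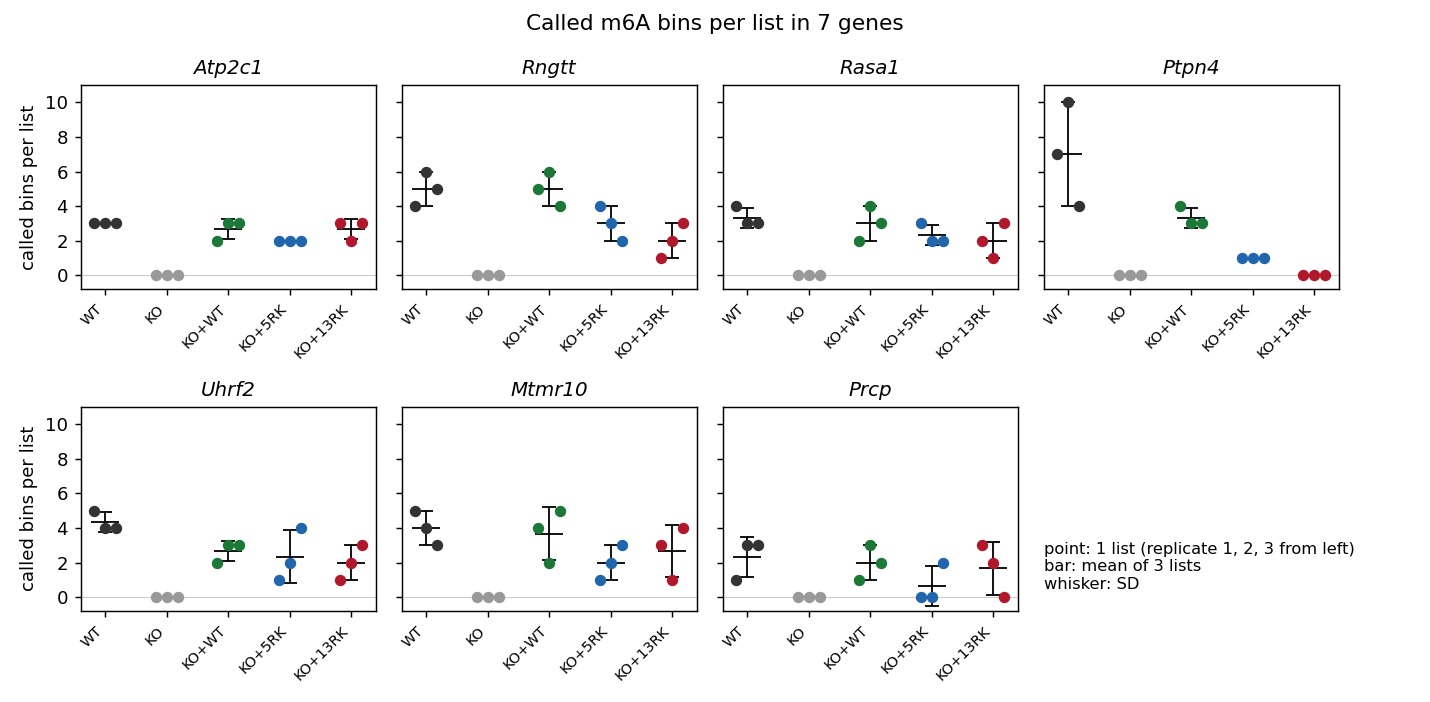
Number of called bins per list (y axis) for each of the 7 genes in the 5 lines (x axis), with a point for each list, a bar for the mean of 3 lists and a whisker for the SD. Every gene is at 0 in KO and above 0 in WT and KO+WT, and Ptpn4 is at 1 bin in each KO+5RK list and 0 in each KO+13RK list.

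The rule asks for high-ranking enrichment values without fixing a measure. Here the rank was taken from the mean over 3 lists of the percentile, within its list, of the highest enrichment value of each gene. Among the 1775 genes called in every WT list but in no KO list (31.5% of the 5631 called in all WT lists), Atp2c1, Rngtt, Rasa1 and Ptpn4 took the first 4 places, with mean percentiles of 99.94, 99.54, 99.45 and 99.00. Among the 1030 genes called in every KO+WT list but in no KO list (25.7% of 4005), Uhrf2, Atp2c1, Mtmr10 and Prcp took places 2 to 5, with 99.14, 98.90, 98.80 and 98.76. Gm27937 ranked above them with 99.67 and is no member, and Tram2, just below, had 98.57. Apart from Atp2c1, the genes at the top in one line ranked lower in the other. In WT, Prcp, Uhrf2 and Mtmr10 held places 45, 158 and 244, and in KO+WT, Ptpn4, Rasa1 and Rngtt held places 20, 48 and 71.

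The calls were grouped in each gene. Bins no more than 100 nt apart formed 25 clusters, and each gene had a main cluster that all WT and all KO+WT lists called. Those of Atp2c1, Rngtt, Rasa1, Uhrf2 and Mtmr10 were called in all 12 lists outside KO. Those of Ptpn4 and Prcp were called in 9 and 8 lists. Of the 54 bins, 17 were called in a single list. Shares over the whole series were not counted for such bins or for clusters in all 12 lists, so these counts only describe the members.

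**Figure D2:**
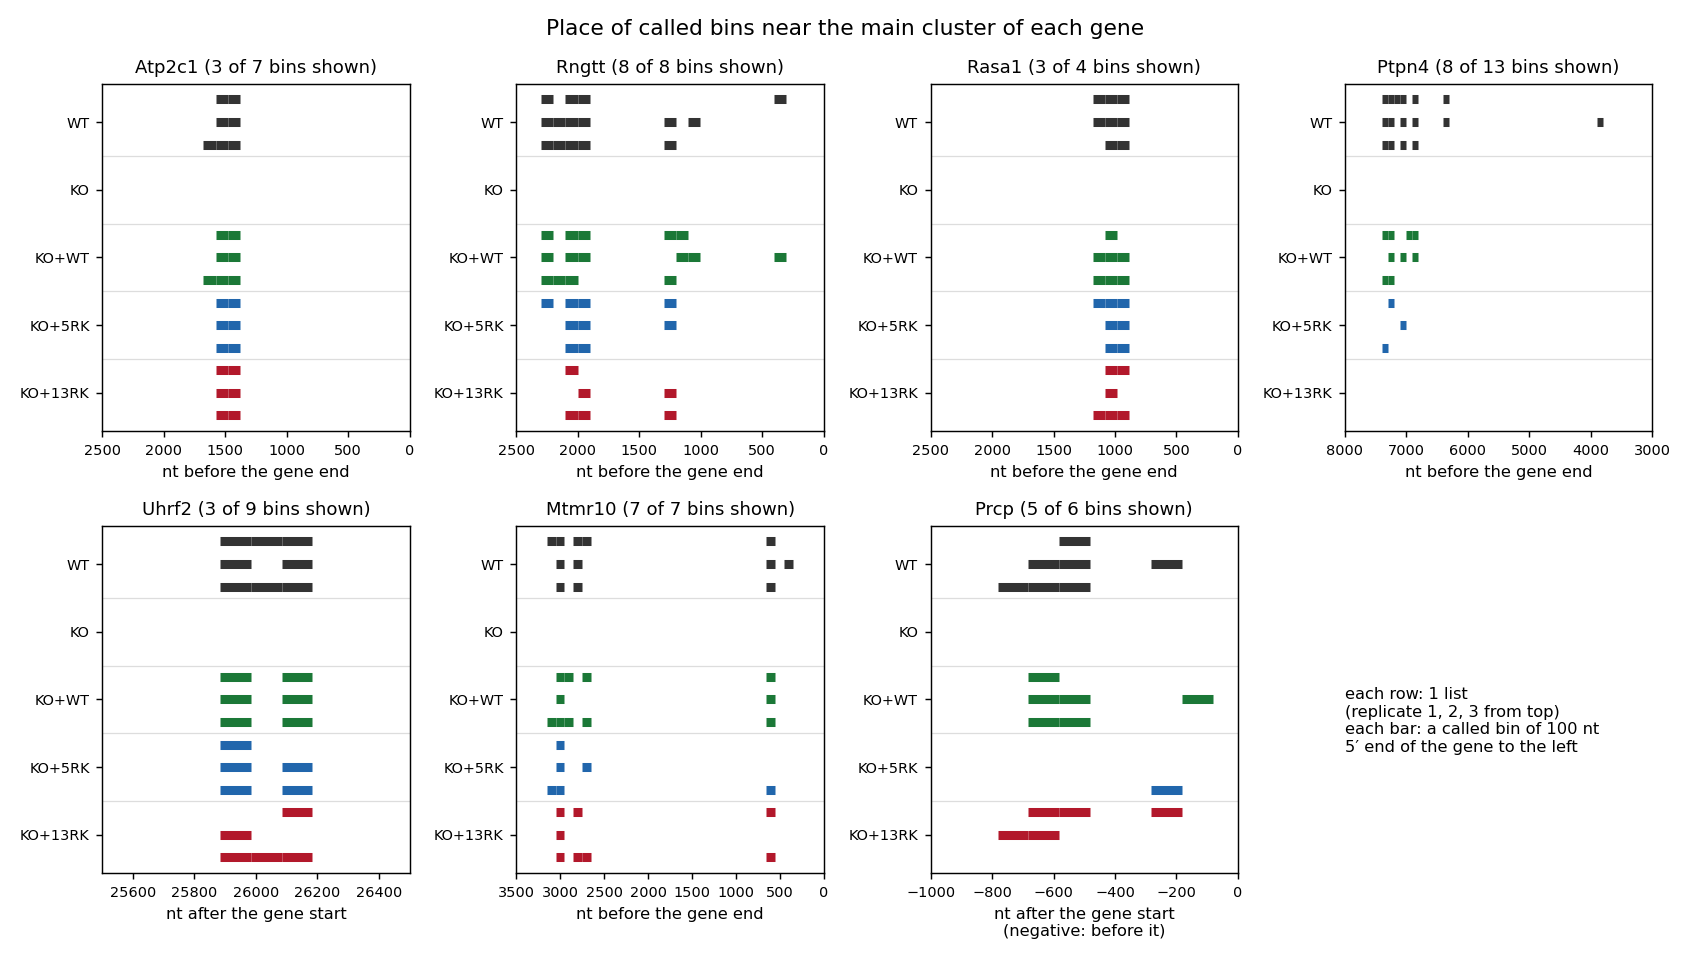
Called bins of 100 nt (bars) around the main cluster of each gene, with 1 row per list grouped by line (y axis) and the distance in nt from the RefSeq gene end or start (x axis). The KO rows are empty in all 7 genes, and the KO+13RK rows are also empty in Ptpn4.

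Rngtt encodes the capping enzyme, which removes the terminal phosphate of nascent transcripts and adds the guanosine cap. The gene spans chr4:33310300-33502614 on the plus strand (GRCm38), and all 8 of its bins ended within 2203 nt of the gene end. Its strongest bin, chr4:33500612-33500711, ended 1903 nt before the gene end. That bin had enrichment values of 3.29, 3.59 and 3.54 in WT, 3.47 and 2.85 in KO+WT replicates 1 and 2, 2.59, 3.32 and 3.25 in 5RK, and 2.93 and 3.38 in 13RK replicates 2 and 3. It was missing from KO+WT replicate 3 and 13RK replicate 1, which did call the next bin upstream. That neighbour, chr4:33500512-33500611, was called in 11 of the 12 lists outside KO. The outer bin chr4:33500312-33500411 went from 3 lists in WT and 3 in KO+WT to 1 in 5RK and 0 in 13RK. Per list Rngtt had 5 ± 1 bins in WT, 5 ± 1 in KO+WT, 3 ± 1 in 5RK and 2 ± 1 in 13RK (SD, n = 3), with the KO+WT and 5RK lists touching at 4 bins.

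Uhrf2 encodes a nuclear ubiquitin ligase that binds methylated and hydroxymethylated DNA. Its span is chr19:30030430-30093726 on the plus strand. The main cluster, chr19:30056314-30056613, began 25884 nt after the gene start and ended 37113 nt before the gene end. Its bin chr19:30056514-30056613 had values of 2.26, 2.64 and 2.86 in WT and 3.05, 3.23 and 3.12 in KO+WT. It was called in 5RK replicates 2 and 3 with 2.29 and 2.77, and in 13RK replicates 1 and 3 with 2.96 and 3.17. In the KO+WT lists it ranked 133 of 14247, 116 of 17185 and 137 of 14187. The bin chr19:30056314-30056413, also in that cluster, was weaker, from 0.91 to 1.94, yet called in 11 of 12 lists. The 7 other bins of Uhrf2 were each called in at most 3 lists, including one near the gene end in a single WT list. Uhrf2 had 4.33 ± 0.577 bins in WT, 2.67 ± 0.577 in KO+WT, 2.33 ± 1.53 in 5RK and 2 ± 1 in 13RK (SD, n = 3), and the rescue lines overlapped.

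Rasa1 encodes a Ras GTPase activating protein that switches Ras off downstream of growth factor receptors. It spans chr13:85214699-85289486 on the minus strand, and its main cluster lay 882 nt before the gene end. The bin chr13:85215681-85215780 was called in all 12 lists outside KO, with values of 1.81, 3.79 and 2.93 in WT, 2.12, 2.76 and 2.13 in KO+WT, 3.01, 1.91 and 2.45 in 5RK, and 3.42, 2.58 and 2.35 in 13RK. The adjoining bin, chr13:85215581-85215680, was called in 3 WT, 2 KO+WT, 3 5RK and 2 13RK lists. A separate bin 1006 nt after the gene start, chr13:85288381-85288480, was called in 2 WT and 2 KO+WT lists and in no mutant list. Rasa1 had 3.33 ± 0.577 bins in WT, 3 ± 1 in KO+WT, 2.33 ± 0.577 in 5RK and 2 ± 1 in 13RK (SD, n = 3), ranges that overlapped.

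The Rasa1 calls cannot be given to 1 strand. In 27 of its 32 calls, a bin of Ccnh, a cyclin gene on the opposite strand, was called at the same place in the same list. In WT replicate 2, for example, Rasa1 had 3.79 and the Ccnh bin 72 nt over it had 3.77. The labels name a stranded kit, and the sources used here do not say whether peak calling used strand. Between 6.72% and 8.89% of the bins of each list had such an opposite-strand partner. No KO list called Ccnh within the Rasa1 span.

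Ptpn4 encodes a cytoplasmic tyrosine phosphatase with FERM and PDZ domains. It spans chr1:119652467-119837585 on the minus strand. Its main cluster of 6 bins, chr1:119659268-119659867, ended 6801 nt before the gene end. The bin chr1:119659768-119659867 had the highest WT values of the gene, 3.20, 3.04 and 3.37, and 2.86 and 2.64 in KO+WT replicates 1 and 3. Its neighbour, chr1:119659668-119659767, had 2.02, 2.42 and 2.95 in WT and 2.00, 2.72 and 1.97 in KO+WT. Each 5RK list called 1 bin of this cluster, and each a different one, with values of 2.95, 2.61 and 2.50. No 13RK list called Ptpn4 at all. Ptpn4 thus had 7, 10 and 4 bins in WT and 4, 3 and 3 in KO+WT, lines that met at 4 bins. It had 1, 1 and 1 in 5RK and 0 in 13RK. The share of all genes with such an order was not counted. The KO+WT lists were longer than the mutant lists, and their values helped to choose the members.

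A second cluster of Ptpn4, chr1:119836968-119837367, lay 218 to 518 nt after the gene start. It was called in WT replicates 1 and 2 and in KO+WT replicate 3, with values from 1.28 to 2.29, and in no mutant list. For this cluster the RefSeq promoter table (GRCm38.p6) gives sequence, around a gene start that lies inside the span. The window chr1:119837022-119837321 holds GGACT, a core form of the m6A consensus, once on the gene's strand and not on the other. Counted by the shorter core GGAC, it holds 4 matches on the gene's strand and 0 on the other. GGACT is on the gene's strand in 26.1% of the 32851 windows of that table and on either strand in 45.5%. The GGACT site is shown because it falls in the one bin of the cluster called in 2 lines, chr1:119837168-119837267. Another GGAC match in that bin is not shown. The stretch is chr1:119837231-119837260 on the minus strand, with the motif in capitals.
Ptpn4: atcggggctccgGGACTtgaaagagacttg
A match in this window is a description, and the sequences of the main clusters were not analysed here.

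Atp2c1 encodes the calcium and manganese pump of the Golgi membrane. It spans chr9:105411362-105521257 on the minus strand and had 2 bins in all 12 lists outside KO, more than any other of the 7 genes. The bin chr9:105412740-105412839, 1378 nt before the gene end, had values of 4.74, 3.81 and 4.40 in WT, ranking 3 of 23164, 32 of 22668 and 6 of 22217. It had 2.03, 2.53 and 4.25 in KO+WT, 3.48, 2.90 and 4.42 in 5RK, and 2.15, 1.82 and 4.00 in 13RK. In replicate 3 of each rescue line it was among the highest bins of its list, at places 1 of 14187, 2 of 11174 and 4 of 10980. The next bin, chr9:105412840-105412939, was also called in all 12 lists, with values from 2.51 to 3.75. Atp2c1 had 3 ± 0 bins in WT, 2.67 ± 0.577 in KO+WT, 2 ± 0 in 5RK and 2.67 ± 0.577 in 13RK (SD, n = 3). Its other 5 bins were each called in 1 or 2 lists. Among them, chr9:105405140-105405339, with 1 call in each of 2 WT lists, lay beyond the RefSeq gene end and within the span of Aste1, so its gene is uncertain.

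Mtmr10 encodes a myotubularin-related protein of the catalytically inactive branch of this phosphoinositide phosphatase family. It spans chr7:64287670-64340806 on the plus strand. The bin chr7:64337754-64337853, 2953 nt before the gene end, was called in all 12 lists outside KO. Its values were 1.57, 1.90 and 2.46 in WT, 2.15, 1.83 and 1.28 in KO+WT, 1.82, 2.25 and 1.64 in 5RK, and 2.76, 1.89 and 1.71 in 13RK. A second bin, chr7:64340154-64340253, lay 553 nt before the gene end and held the highest KO+WT values of the gene, 3.04, 3.16 and 2.95. It was called in all 3 WT and all 3 KO+WT lists, but in 1 5RK list and 2 13RK lists. The bin chr7:64337954-64338053 was called in 3 WT lists, in no KO+WT or 5RK list, and in 2 13RK lists. Mtmr10 had 4 ± 1 bins in WT, 3.67 ± 1.53 in KO+WT, 2 ± 1 in 5RK and 2.67 ± 1.53 in 13RK (SD, n = 3), and the lines overlapped. In 16 of its 37 calls a bin of Gm20457 on the opposite strand was called at the same place, so the strand is uncertain here too.

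Prcp encodes a lysosomal serine carboxypeptidase that removes the last residue of peptides after a proline. Its RefSeq span is chr7:92875253-92934581 on the plus strand, and 5 of its 6 bins lay before the start of that span. The main cluster, chr7:92874471-92874770, had bins that began at -782 to -582 nt relative to that start, within the RefSeq span of Ddias (chr7:92857525-92874917). In the lists that called these bins no bin of Ddias was called there, and the gene assignment is that of the authors' lists. The bin chr7:92874671-92874770 had 2.86, 2.15 and 2.63 in WT, 3.00 and 2.96 in KO+WT replicates 2 and 3, and 2.61 in 13RK replicate 1. The bin chr7:92874571-92874670 had 1.60 and 2.10 in WT replicates 2 and 3, 3.11, 3.00 and 1.90 in KO+WT, and 2.46 and 2.69 in 13RK replicates 1 and 2. No 5RK list called the main cluster. 5RK replicate 3 called 2 other bins, each with 2.30, and 13RK replicate 3 called none. Prcp had 2.33 ± 1.15 bins in WT, 2 ± 1 in KO+WT, 0.667 ± 1.15 in 5RK and 1.67 ± 1.53 in 13RK (SD, n = 3), all overlapping.

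One of the 5RK bins of Prcp, chr7:92874971-92875070, was also called in WT replicate 2 with 3.12 and in 13RK replicate 1 with 2.91. It reaches into the promoter window of the RefSeq table, chr7:92875003-92875302. This window holds GGAC, the shorter core, once on the gene's strand and not on the other. GGAC is on the gene's strand in 65.6% of all windows and on either strand in 87.7%. The stretch chr7:92875003-92875032 on the plus strand, before the RefSeq gene start, is shown because the match lies inside the called bin, with the match in capitals.
Prcp: GGACagtgtgatggtggcaataaaggcggg
Inside the Prcp span, 1 KO list held a bin of another gene, 9530078K11Rik at chr7:92902580-92902679.

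The WT bins missing in KO were then followed into the rescue lines. In the 7 genes, 17 bins were called in every WT list but in no KO list, and these were all the member bins called in all WT lists. The share over the series was 79.9% of 10946 regions, a region being a set of bins that overlap on a strand, and the choice of genes fixes the members' count. Likewise all 11 member bins called in all KO+WT lists were in no KO list, against 70.9% of regions. Of the 17 bins, 6 (35.3%) lay within 2000 nt before the gene end, close to the 38.9% of 8200 such regions over all genes that could be placed.

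KO+WT lists called 13, 15 and 13 of the 17 bins, 5RK lists 10, 10 and 11, and 13RK lists 10, 6 and 11. These are 80.4% ± 6.79, 60.8% ± 3.40 and 52.9% ± 15.6 (SD, n = 3 lists). The wide spread of 13RK came from replicate 2, with 35.3%. List length differed between the lines. With every list cut to its 6328 bins of smallest deposited p-value, 4 member bins were left. KO+WT and 5RK lists both called 75% of these on average, and 13RK lists 50%. So few bins cannot show whether KO+WT and 5RK differ at equal length. At that length KO+WT, 5RK and 13RK called 71.4%, 62.0% and 51.9% of all regions in every WT list but no KO list. In the full lists the shares over all 8744 such regions were 62.2% ± 2.79, 48.6% ± 6.08 and 36.7% ± 3.62. There the members lay above the whole set in each line. Enrichment in KO+WT helped to choose them, so the KO+WT difference is not evidence about these genes. The part of the high WT and KO+WT values in the 5RK and 13RK differences was not tested. A median member bin was called in 7 of the 9 rescue lists, against 4 over all such regions. The 9 include the 3 KO+WT lists used in the choice, so this too is a description.

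**Figure D3:**
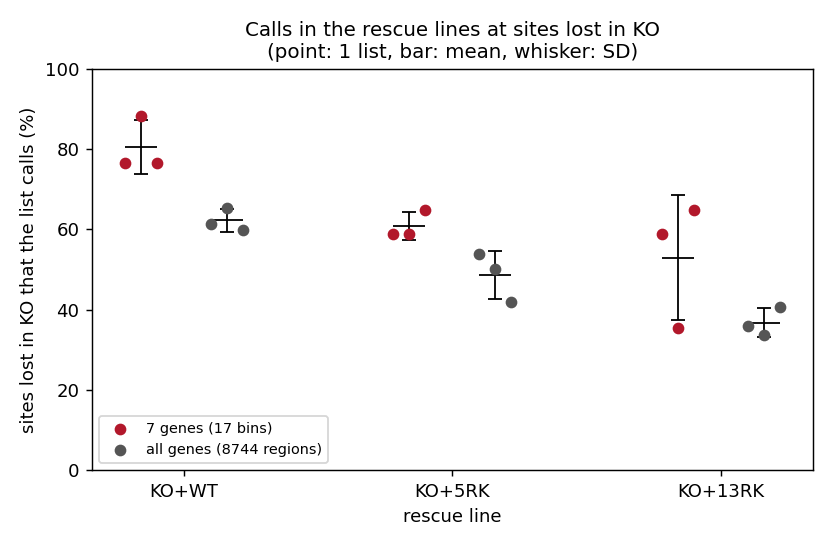
Share of the sites called in every WT list but in no KO list that each rescue list called (y axis, %), by rescue line (x axis), for the 17 bins of the 7 genes and for 8744 regions of all genes. Points are lists, bars means and whiskers SD. The member share falls from 80.4% in KO+WT to 60.8% in KO+5RK and 52.9% in KO+13RK. The share of all regions falls from 62.2% to 48.6% and 36.7%. KO+WT values helped to choose the 7 genes, so the member fall from KO+WT is a description.

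Bin by bin, the members parted into groups. Both main bins of Atp2c1, 1 of Rasa1 and 1 of Mtmr10, 4 of 17 in all, were called in all 9 rescue lists, against 12.8% of all such regions. All 3 lists of KO+WT called 10 of the 17 bins (40.7% over all regions), all 3 of 5RK called 8 (26.1%) and all 3 of 13RK called 4 (18.5%). Counts that include KO+WT lists are a description, since these lists helped to choose the genes. No 13RK list called 5 of the 17, the 4 bins of Ptpn4 and the outer bin of Rngtt, against 42.9% of all such regions. The Prcp bin and 1 bin of Ptpn4 and of Mtmr10 had no 5RK call. The share of all such regions with no 5RK call was not counted.

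**Figure D4:**
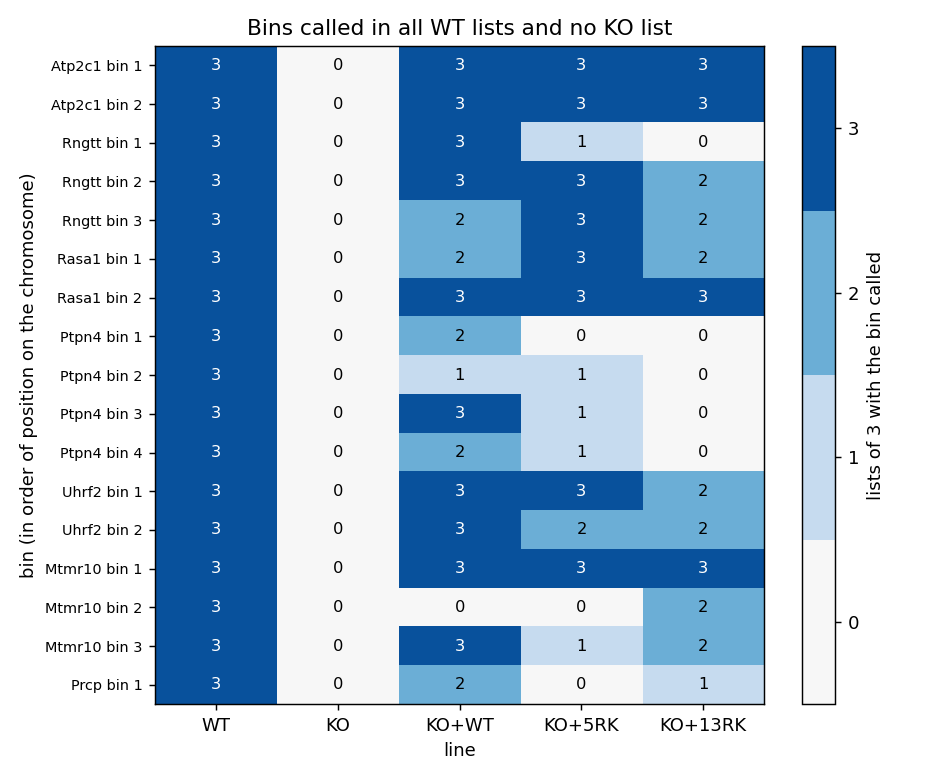
Number of lists out of 3 (numbers and colour) that called each of the 17 bins present in every WT list but in no KO list, by line (x axis) and bin (y axis). The 2 Atp2c1 bins are at 3 in every line but KO, and the 4 Ptpn4 bins are at 0 in KO+13RK.

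Counted as genes, 7 of 7 were called in all 3 KO+WT lists, 6 in all 3 5RK lists and 5 in all 3 13RK lists. Over all 1775 genes called in WT and not in KO these shares were 48.7%, 35.6% and 26.6%. Atp2c1, Rngtt, Rasa1, Uhrf2 and Mtmr10 were called in all 9 rescue lists, as were 18.3% of the 1775. The KO+WT lists were used in the choice of genes, so the counts that include them are a description. Ptpn4 was in no 13RK list, as were 25.2% of the 1775. The members also had more bins to lose, with a median over genes of 4 WT bins per list, against 2.33 over the 1775 genes. More bins give a gene more chances of a call, and their part in these counts was not tested.

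The 2 arginine mutants are the only pair of lines that the choice of genes left unused, and they ask whether the 5RK and 13RK forms differ. Ptpn4 was called in all 3 5RK lists and in no 13RK list, a pattern of 1.37% of the 10719 genes called in either mutant. The reverse held for 0.401% of genes and for no member. With a q-value of at most 0.005, Ptpn4 was called in 2 5RK lists and in 0 13RK lists. Fisher's exact test of 3 lists against 3 gave p = 0.1 for Ptpn4, the smallest possible, and an adjusted p of 1. For the other 6 genes p was 1. Over all 10719 genes 0 passed (0%), with 0 at an unadjusted p under 0.05, so the design could not have called any gene. None of the 30 member bins called in a mutant was in all lists of one mutant and none of the other, against 1.02% of 30607 regions for 5RK alone and 0.350% for 13RK alone, and again 0 regions passed (0%).

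Relatives of the 7 genes were missing from KO about as often as genes in general. Of 64 relatives listed by family, 54 had a call in some list and 36 were called in all WT lists. No KO list called 11 of these 36, close to the 31.5% over all genes, and 7 of the 36 were called in all KO lists.

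Of the cap formation and binding genes, 0 of the 4 called in all WT lists were missing in KO. The cap-binding subunit Ncbp1 was called in 2 KO lists, its relative Ncbp3 in 2 and the cap methyltransferase Cmtr2 in 1. The same held for 0 of 5 in the group around Uhrf2. The maintenance methyltransferase Dnmt1 and the remodeller Hells were called in all 15 lists, and the deubiquitinase Usp7 in 2 KO lists. Of the Ras GTPase activating proteins, 2 of 3 were missing in KO. Nf1, the neurofibromin gene, went from 3 WT lists to 0 in KO, 3 in KO+WT, 2 in 5RK and 1 in 13RK, while Dab2ip was called in 2 KO lists. Rasal2 went from 3 WT lists to 0 in KO, 3 in KO+WT, 0 in 5RK and 1 in 13RK. Rasal1 was called in no WT list and in 7 rescue lists.

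Among the tyrosine phosphatases 3 of 9 were missing in KO. Ptpn11, which encodes SHP2, was called in all 15 lists, and Ptpn14 and Ptpn12 in 2 KO lists each. The myotubularins had 3 of 8 missing in KO, and Mtmr12 was called in all 15 lists, Mtmr3 and Sbf1 in 14. Of the calcium pumps 1 of 3 was missing. This was the plasma membrane pump gene Atp2b4, with 3 WT lists, 0 KO lists and 1, 1 and 2 lists in KO+WT, 5RK and 13RK. Atp2b1 was called in 14 lists, and Atp2a2, the pump of the endoplasmic reticulum, in 9 including all KO lists. The peptidases had 2 of 4 missing in KO, while Scpep1 and Dpp7 were called in all KO lists and Ctsa in 1.

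Likeness of pattern was measured as the mean absolute difference, over the 15 lists, of the within-list percentile of each gene's highest value, with 0 where there was no call. Orc3 was nearest to Atp2c1, at 1.89 percentile points, and also to Uhrf2 (5.03) and Mtmr10 (5.04), against medians over 13764 genes of 59.9 to 64.6. Rasa1 was nearest to Katnbl1 (2.06) and next to Atp2c1 (2.07). Rngtt was nearest to Atp2c1 (3.77) and Orc3 (3.84). Second after Orc3 came Rasa1 for Atp2c1 (2.07), Mtmr10 for Uhrf2 (5.24) and Atp2c1 for Mtmr10 (5.14).

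Ptpn4 had other neighbours, Rgs3 at 1.09 and Gm26786 at 1.41, each called in all lists of WT, KO+WT and 5RK and in none of KO or 13RK. The nearest gene to Prcp was Mrps9 at 6.50, which was called in 1 KO list, followed by Adcy1 at 9.53, which was called in no KO or 5RK list and in 2 13RK lists. These distances describe the 15 lists alone, and lists of one line share its genotype.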

How the data were processed

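The 15 deposited lists have no header and give, per called bin of 100 nt, an Ensembl gene, an enrichment score, a p-value and a q-value. The score is the authors' own, from 0.31 to 5.82, and its scale is not stated. It ranked bins within a list only. The p-value and q-value deposited by the authors were used as filters in alternatives, and every q was under 0.05. Per the submitters' processing notes, GRCm38, STAR (2.5.3a) and kallisto (0.43.0) were used, in roles not stated, and the sources used here do not give the peak caller. Each list was matched to the immunoprecipitated sample whose title starts with its name.

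Presence or absence of a call was the measure compared. Bins overlapping by 1 nt or more on a strand were merged into 60022 regions. Symbols came from a name table (99.7% of 13765 genes), gene spans from RefSeq on GRCm38.p6 by symbol. Near the gene end means within 2000 nt. Fisher's exact test (two-sided, scipy 1.17.1) compared the mutants, with Benjamini-Hochberg adjustment over all genes or regions and a threshold of 0.05, and was checked on simulated calls. The test counts lists as units. The labels do not say whether replicates were separate cultures, so differences between lists of a line may be technical. Named genes were the 7 members, up to 3 relatives per family called in the most lists (4 where tied), the 2 most alike genes per member, and the genes next to the members in the KO+WT ranking; the gene next to them in the WT ranking is not reported here. The members and lists were chosen with earlier results of these data known. No coordinates were converted.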

Additional observations from a re-analysis of the deposited data

How the results depend on the processing

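Each count of calls depends on the authors' thresholds and on depth, which is unknown, so a missing call does not show absence of m6A. The alternatives only drop calls or merge bins already called, so none could give a member a KO call. With a q-value of at most 0.005, 7 member bins were called in all WT lists and 6 in all KO+WT lists with none in KO (17 and 11 in the report). The shares of genes with no KO call were then 54.0% and 46.1%, 5RK lists called 66.7% of the member bins lost in KO, and the 3 rescue lines called 57.8%, 42.5% and 30.6% of all such regions. Using only bins at or above the median enrichment left 7 member bins in KO+WT, gene shares of 47.9% and 41.9%, and rescue shares of 50.0%, 37.4% and 26.3%. Cutting each list to its 6328 bins of smallest deposited p-value left 4 and 6 member bins and gene shares of 27.5% and 24.2%. KO+WT and 5RK each called 75% of the 4 member bins and 13RK 50%. Of all regions the 3 lines called 71.4%, 62.0% and 51.9%. At that length Mtmr10 and Prcp were each called in 1 WT list. Merging bins within 100 nt gave 8 member clusters lost from WT, called at 100%, 79.2% and 79.2% in the rescue lines, against 68.2%, 56.7% and 44.7% of all. Asking for 2 of 3 lists gave 26 and 22 member bins, gene shares of 35.6% and 30.8%, 66.7% and 44.9% of member bins in KO+WT and 5RK, and 47.2%, 36.0% and 26.8% of all regions. Unmerged bins left the member values as they were, with 62.3%, 48.9% and 36.9% of all regions. Merging on either strand, chosen after seeing the data, gave 16 member regions lost from WT, called at 85.4%, 60.4% and 52.1% in the rescue lines.

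Leaving out each list in turn gave ranges of 17 to 21 member bins from WT, 11 to 15 from KO+WT, 33.1% to 40.8% and 27.3% to 34.5% of genes, and 69.8% to 82.4%, 52.4% to 61.8% and 44.4% to 61.8% of member bins in KO+WT, 5RK and 13RK. For all regions the ranges were 54.4% to 63.4%, 42.1% to 52.0% and 31.7% to 38.3%. With the replicate number as a block (exact McNemar test), 0 genes and 0 regions passed between the mutants, but 3 pairs cannot pass this test whatever the calls. The numbers did not pair the mutant lists, whose same-numbered correlations ran from -0.0266 to -0.00938, against 0.00151 to 0.0234 for different numbers. These values were used only to look for pairing by number. They do not measure how alike the calls of the 2 mutants were.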
